A study of Drosophila melanogaster with 4 samples.

Results

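The genes described here encode the nuclear envelope, the nuclear pore and the nuclear transport machinery of Drosophila melanogaster, in heads of day 30 adults that overexpressed lamin B and of control siblings. They are 49 genes listed by name, which were matched to the 17753 genes of the authors' deposited table through a BDGP6 gene annotation, and 48 had a row. Pen, an importin alpha gene, had none under its annotated identifier and was not analysed here. By role, 8 of the 48 genes belong to the lamina and its partners at the inner membrane, 5 to the envelope and its links to the cytoskeleton, 28 to the pore and 7 to transport. The lamin-B overexpression group carried 1 copy of an Hsp70-Gal4 driver and 1 copy of a UAS-LamB.GFP transgene (Hsp70-Gal4/+; +/UAS-LamB.GFP). The control siblings carried the same transgene copy without the driver (+/+; +/UAS-LamB.GFP), so both groups hold the UAS-LamB.GFP insertion. The driver carries a heat shock promoter, and the protocols in the labels mention no heat shock. Each group had 2 samples of RNA from pooled heads, and poly-A RNA was sequenced as paired ends. No sample with the driver alone was analysed here, so effects of lamin B, of the driver and of variants linked to the driver cannot be told apart. Whether the samples of a group came from separate cultures is not in the labels, and p-values then cover only the spread among these libraries, possibly a technical one.

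The nuclear lamina is a mesh of lamin filaments under the inner nuclear membrane. Flies have a B-type lamin, encoded by Lam and present in nearly all cells, and an A-type lamin, encoded by LamC and found mainly in differentiated cells. Proteins of the inner membrane tie the lamina to chromatin, and the LINC complex joins it across both membranes to the cytoskeleton. Nuclear pores pierce the envelope, and importins and exportins carry cargo through them in a cycle driven by the small GTPase Ran.

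The authors' deposited table gives 1 mean and 1 fold change per gene. Whole reads per library were recovered from these printed values for 47 of the 48 genes, all except Msp300, and were divided by the library's size factor to give normalized counts. The 2 overexpression libraries had size factors of 1.15 and 1.10, and the 2 control libraries had 1.09 and 0.73. Values are given in that order, and the libraries carry no replicate number. Fold changes are on the log2 scale, overexpression over control, with the shrinkage of the deposited values undone. Calls and adjusted p-values are those of the Wald test in the authors' deposited table, with 0.05 as the threshold for a call.

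Lam was the only gene of the 48 that was called, and it rose. None of the other 47 was called, among them the A-type lamin gene, all 28 nucleoporin genes and all 7 tested transport genes. Called higher was thus 1 of 48 genes, against 5.66% of all 11757 tested genes in the authors' deposited table. Called lower were 0 of 48, against 3.07% of all tested genes. At an unadjusted p under 0.05 the authors' deposited table held 3 of the 48, namely Lam, kuk and Tnpo, or 6.25%, against 20.1% of all tested genes. A linear model on the recovered reads (limma) called Lam higher, against 9.03% of 10990 genes, and kuk lower, against 4.60% of them.

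Before the single genes, the libraries themselves need a description, because reads of genes used as markers of other organs differed between the groups. The source of these reads was not tested. Of 7 accessory gland markers 6 were called higher in the authors' deposited table, as were 4 of 10 tested testis markers. Of 6 midgut markers 3 were called higher and 1, Amy-p, lower, at a log2 fold change of -0.19. Amy-p was the most abundant midgut marker, with a mean normalized count of 11239.9 against a median of 297 for the 6. Reads per library were recovered for only 1 of the 6, so no midgut sum is given. Whether midgut reads as a whole rose or fell was not tested. The summed normalized counts of the 7 accessory gland genes were 782 and 1864 in the overexpression libraries, compared with 24.8 and 16.5 in the control libraries, where 5 of the 7 were at 0 in both. The 9 testis genes with recovered reads summed to 434 and 1709 in the overexpression libraries, against 8.26 and 49.4 in the controls, and 4 of them were at 0 in both controls. Both sums were larger in the overexpression library with size factor 1.10. Of 4 genes with reads that were listed as ovary markers, bam was at 0 in both controls. It had 6.99 and 16.3 normalized counts in the overexpression libraries, the larger value, like the testis sum, at size factor 1.10. The 4 genes summed to 34.1 and 33.5 in the overexpression libraries, against 4.59 and 26.0 in the controls. In the overexpression libraries vas and bam made up most of this sum. Whether the reads of vas and bam came from ovary or testis was not tested. None of the 3 abdominal segment genes was called, and they summed to 51.5 and 84.2 in the overexpression libraries, against 9.18 and 21.9 in the controls. Head markers were abundant, with mean normalized counts from 28662 to 1176380 for 6 photoreceptor genes, from 6140 to 41834 for 5 neuronal genes and from 2185 to 41179 for 5 glial genes. The authors' deposited table called 2 photoreceptor genes and 2 neuronal genes lower and no glial gene in either direction. In pooled heads, fewer cells of a type and less RNA per cell cannot be told apart. The part of these differences in the results below was not tested, since both overexpression libraries hold them.

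The lamins come first. Lam (FBgn0002525, chromosome 2L, 5542480 to 5546642 on BDGP6), the B-type lamin gene, had 4414 and 4758 normalized counts in the overexpression libraries, against 2109 and 2130 in the controls. The lowest overexpression library thus lay far above the highest control, and each overexpression library was between 2.07 and 2.26 times each control. The means were 4586 ± 243 normalized counts in the overexpression heads and 2119 ± 15.4 in the controls (SD, n = 2 each). The log2 fold change was 1.11 (SE 0.0859), or 2.16-fold with a 95% interval of 1.93 to 2.43, and the authors' deposited table gave 1.04 (SE 0.0801, adjusted p = 6.76e-36). By size of its Wald score Lam ranked 28 of all tested genes in the authors' deposited table. Among the 4810 tested genes whose mean was 1000 or higher, its fold change was the third highest. With the overexpression library of size factor 1.10 left out, the log2 fold change of Lam was 1.06 by limma (adjusted p = 0.0262). Such a fit leaves 1 library in a group, and that library is assumed to vary like the pair of the other group. Reads from the transgene's Lam sequence and from the native gene cannot be told apart here.

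LamC (FBgn0010397, chromosome 2R, 14570810 to 14575771 on BDGP6), the A-type lamin gene, had 2959 and 2812 normalized counts in the overexpression libraries, compared with 2681 and 2529 in the control libraries. Both overexpression libraries lay above both controls, by less than 1.2-fold. Its fold change was 0.15 on the log2 scale (SE 0.0902, 95% interval -0.03 to 0.32), which did not pass the test in the authors' deposited table (adjusted p = 0.391). Per kilobase of exon, the level of Lam was 0.978 and 1.11 times that of LamC in the overexpression libraries, against 0.516 and 0.552 times in the controls. The levels of both lamins added up to 2389 and 2421 normalized counts per kilobase in the overexpression libraries and to 1659 and 1602 in the controls. All levels of Lam divide by the exons of the native gene. The Lam sequence held by the transgene was not known here, so these ratios and sums are uncertain.

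**Figure D1:**
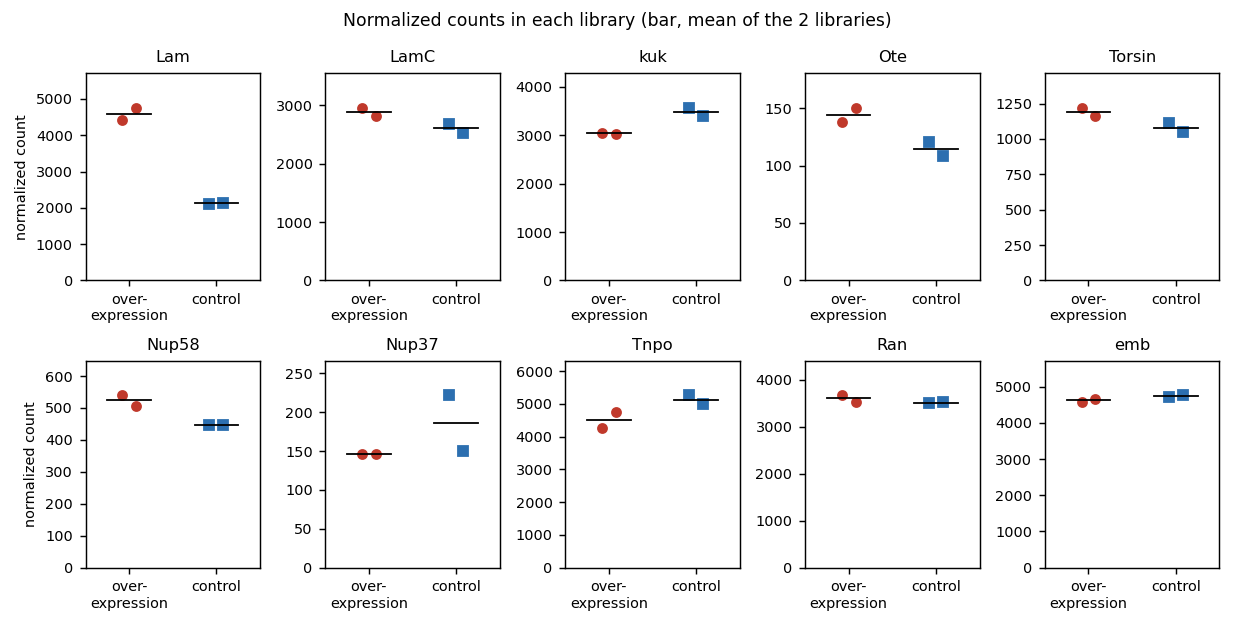
Normalized counts (linear axes from 0) of 10 genes in each library, overexpression as circles on the left and control as squares on the right, with bars at the mean of 2 libraries. Lam is the gene whose groups stand far apart, at 4414 and 4758 in the overexpression libraries against 2109 and 2130 in the controls, while kuk and Tnpo lie lower in both overexpression libraries by smaller amounts.

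The partners of the lamina had no called member among 7 genes in the authors' deposited table, with adjusted p from 0.112 to 0.973. That table called 8.74% of all tested genes. The gene nearest to a call was kuk, which encodes kugelkern, a farnesylated protein of the inner membrane that shapes nuclei in the early embryo. It had 3053 and 3023 normalized counts in the overexpression libraries, against 3568 and 3392 in the controls. Both overexpression libraries lay below both controls, and the gap between the groups was larger than the spread within them. The fold change of kuk was -0.20 on the log2 scale (SE 0.0803, 95% interval -0.35 to -0.04), and the authors' deposited table gave an unadjusted p of 0.0143 and an adjusted p of 0.112. By limma on the recovered reads kuk passed (adjusted p = 0.0412), at a log2 fold change of -0.20. In the 4 limma fits that left out a library its log2 fold change lay between -0.23 and -0.16 and its adjusted p between 0.0566 and 0.353. These fits also called fewer genes in all, down to 2.76% of all genes.

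The LEM domain proteins bind chromatin through the small bridging protein encoded by baf. Otefin, encoded by Ote and needed in germline stem cells, was the least abundant gene of all 48, with 138 and 150 normalized counts in the overexpression libraries, compared with 120 and 108 in the control libraries. Its groups did not overlap, but at this depth the 95% interval of its log2 fold change, 0.33, ran from -0.34 to 1.01. MAN1, whose product binds Smad proteins, had 878 and 965 normalized counts in the overexpression libraries against 855 and 875 in the controls. The overlapping levels of bocks, which encodes bocksbeutel, were 794 and 697 in the overexpression libraries, against 778 and 742 in the controls. The bridging factor gene baf had 1133 and 983 normalized counts in the overexpression libraries, compared with 1075 and 1002 in the control libraries, again with overlap. LBR, which encodes the lamin B receptor, had 336 and 290 normalized counts in the overexpression libraries against 285 and 303 in the controls, a log2 fold change of 0.09 (95% interval -0.37 to 0.55). No difference for LBR was detected, and its interval lay within 1.5-fold of no change.

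**Figure D2:**
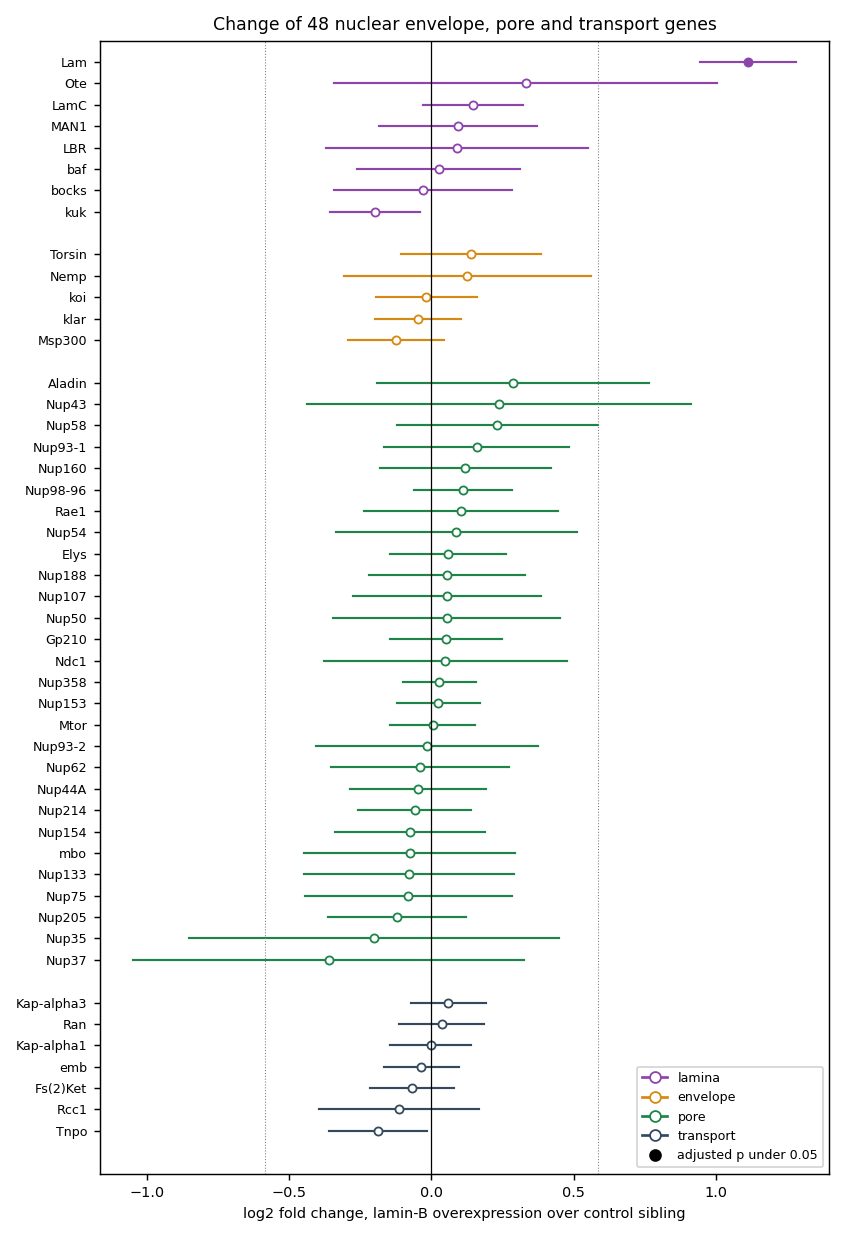
Log2 fold change of each of the 48 genes, overexpression over control, with 95% intervals, by group. Dotted lines stand at 1.5-fold in each direction and the filled point is the gene called in the authors' deposited table. Lam at 1.11 stands apart, the intervals of kuk and Tnpo lie just below 0 and all others include it, widest for Ote, Nup37, Nup43 and Nup35, the genes with the fewest reads.

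The envelope group holds the LINC complex and 2 proteins of the envelope itself. None of its 5 genes was called in the authors' deposited table, with adjusted p from 0.484 to 0.969, and by limma none of the 4 with recovered reads was. At an unadjusted p under 0.05 the count was also 0. Among all tested genes 8.74% were called in the authors' deposited table, 13.6% were called by limma and 20.1% had such a p. Counts of 0 among so few genes therefore say little. The SUN protein gene koi, whose product spans the inner membrane, had 2632 and 2500 normalized counts in the overexpression libraries, against 2654 and 2539 in the controls. Its outer membrane partners carry KASH domains. The KASH gene klar, known for nuclear positioning in the developing eye, had 5958 and 6513 normalized counts in the overexpression libraries against 6551 and 6318 in the controls. Msp300, a giant nesprin that anchors nuclei to actin, was the most abundant of the 48 by mean normalized count, at 42956 in the authors' deposited table, with the longest exons (69810 bases in all). Its log2 fold change was -0.12 (95% interval -0.29 to 0.04), obtained from the deposited values alone. All 3 LINC genes thus had fold changes below 0, between -0.12 and -0.02 on the log2 scale, and none was called. The groups of koi and klar overlapped. The fold change of koi was smaller in size than the shift of 0.03 that another scaling gave, described below. Torsin, an ATPase gene of the space between the membranes, had 1221 and 1161 normalized counts in the overexpression libraries, compared with 1115 and 1046 in the control libraries, without overlap, and an adjusted p of 0.662 in the authors' deposited table. Nemp, a gene for an inner membrane protein needed for fertility, had 428 and 361 normalized counts in the overexpression libraries against 378 and 344 in the controls.

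The pore group was the largest, and no gene of it was called. Of 28 nucleoporin genes 0 were called in the authors' deposited table, 0 had an unadjusted p under 0.05, and 0 were called by limma. The shares over all tested genes were 8.74%, 20.1% and 13.6%, in that order. The smallest adjusted p in the authors' deposited table was 0.567, that of Nup58. Fold changes of 17 were above 0 and of 11 below 0, with a median of 0.04 on the log2 scale against 0.01 for all tested genes. Summed over the 28 genes, the level per kilobase of exon was 8581 and 8712 normalized counts in the overexpression libraries, against 8434 and 8553 in the controls. The group means of this sum differed by little more than the 2 libraries of either group did.

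On the cytoplasmic face, Nup358, a giant Ran-binding nucleoporin, was the most abundant of the 28 by normalized count, with 6547 and 6312 in the overexpression libraries, compared with 6403 and 6205 in the control libraries. Nup214 had 1612 and 1635 normalized counts in the overexpression libraries against 1665 and 1716 in the controls, and mbo, the fly gene for Nup88, had 542 and 591 in the overexpression libraries against 544 and 653 in the controls. Rae1, whose product serves mRNA export, had 634 and 661 normalized counts in the overexpression libraries against 559 and 648 in the controls. Only Nup214 of these 4 had groups that did not overlap.

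The Y complex forms the outer rings of the scaffold, and 9 genes were counted with it. Nup98-96, which encodes the repeat nucleoporin Nup98 and the scaffold protein Nup96 in one transcript unit, had 3291 and 3073 normalized counts in the overexpression libraries, against 2896 and 2997 in the controls. These did not overlap, at a log2 fold change of 0.11 (95% interval -0.06 to 0.28). Nup37 had the largest fold change in size among the 28, at -0.36 on the log2 scale (95% interval -1.05 to 0.33), with 146 and 146 normalized counts in the overexpression libraries against 222 and 151 in the controls. The control libraries alone differed by more than the groups did. Nup43 had 155 and 228 normalized counts in the overexpression libraries, compared with 163 and 162 in the control libraries, so the overexpression library with size factor 1.10 set its fold change of 0.24. Nup133 and Nup75 lay slightly below both controls, with log2 fold changes of -0.08 each. Nup107, Nup160, Nup44A and Elys, the last of which seeds pores on chromatin, had fold changes between -0.05 and 0.12 on the log2 scale with overlapping groups.

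The inner ring holds the scaffold at the membrane. Nup93-1 had 818 and 703 normalized counts in the overexpression libraries, against 677 and 685 in the controls, and its paralog Nup93-2 had 432 and 390 in the overexpression libraries against 424 and 407 in the controls. Per kilobase of exon, the level of Nup93-1 was 1.70 and 1.61 times that of Nup93-2 in the overexpression libraries and 1.43 and 1.51 times in the controls. The 2 paralogs share sequence ancestry, and 27.6% of the exon bases of Nup93-2 also lie in a gene on the opposite strand, so this ratio is uncertain. Nup205 had 1032 and 1087 normalized counts in the overexpression libraries, compared with 1169 and 1136 in the control libraries, with a log2 fold change of -0.12 (95% interval -0.36 to 0.12). Nup35 had 123 and 137 normalized counts in the overexpression libraries against 141 and 158 in the controls, again without overlap, while Nup154 and Nup188 had overlapping groups and fold changes of -0.08 and 0.06 on the log2 scale.

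The central channel nucleoporins carry the phenylalanine and glycine repeats through which cargo passes. Nup58 had 541 and 507 normalized counts in the overexpression libraries, against 446 and 446 in the controls, a log2 fold change of 0.23 (SE 0.180, 95% interval -0.12 to 0.59). The groups were apart, yet the gene did not pass the test. Its channel partners had overlapping groups, since Nup54 had 460 and 557 normalized counts in the overexpression libraries against 436 and 522 in the controls, and Nup62 had 621 and 671 in the overexpression libraries against 679 and 648 in the controls.

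Among the genes of the pore membrane, Aladin, whose human homologue is mutated in Allgrove syndrome, had 284 and 279 normalized counts in the overexpression libraries, compared with 222 and 240 in the control libraries. That was the largest positive fold change of the pore group, 0.29 on the log2 scale (95% interval -0.19 to 0.76), and did not pass in the authors' deposited table (adjusted p = 0.626). Of its exon bases 17.8% are shared with the gene c11.1 on the opposite strand. Ndc1, whose human counterpart anchors Aladin in the membrane, had 348 and 381 normalized counts in the overexpression libraries against 373 and 330 in the controls, and Gp210, another transmembrane nucleoporin, had 2093 and 2197 in the overexpression libraries against 2139 and 1993 in the controls.

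The nuclear basket faces the chromatin. Mtor, the fly gene for the basket filament protein Tpr, had 3348 and 3408 normalized counts in the overexpression libraries, against 3404 and 3328 in the controls. Its log2 fold change was 0.0046 (95% interval -0.14 to 0.15), so a change beyond about 1.11-fold in either direction lay outside its interval. Nup153 had 5209 and 5177 normalized counts in the overexpression libraries against 5289 and 4916 in the controls, and Nup50 had 510 and 615 in the overexpression libraries against 501 and 584 in the controls. All 3 basket genes had overlapping groups.

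**Figure D3:**
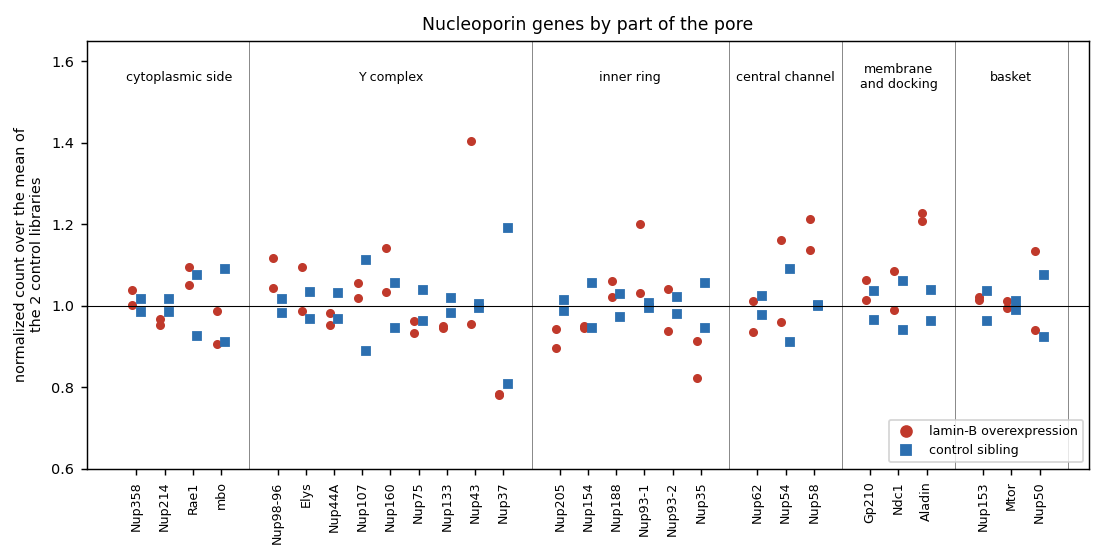
Normalized count of each of 28 nucleoporin genes in each library divided by the mean of the 2 control libraries, by part of the pore, with overexpression as circles left of control squares. Most circles lie among the squares near 1, and the widest scatter is that of Nup37 and Nup43, which have the fewest reads in the Y complex.

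The transport group carries cargo through these pores. None of its 7 tested genes was called in the authors' deposited table or by limma, and 1, Tnpo, had an unadjusted p under 0.05. Beside shares of 8.74%, 13.6% and 20.1% over all tested genes, these counts among 7 genes say little. Tnpo, which encodes transportin, an importer of RNA-binding proteins, had 4269 and 4741 normalized counts in the overexpression libraries, compared with 5269 and 4984 in the control libraries. Both overexpression libraries lay below both controls, with a gap smaller than the spread within the overexpression group. Its log2 fold change was -0.19 (SE 0.0875, 95% interval -0.36 to -0.02), and the authors' deposited table gave an unadjusted p of 0.0325 and an adjusted p of 0.193.

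The classical import receptors follow. Kap-alpha3, an importin alpha that reads nuclear localization signals, had the highest level per kilobase of all members, with 8461 and 8212 normalized counts in the overexpression libraries, against 7717 and 8284 in the controls. Kap-alpha1 had 3660 and 3693 normalized counts in the overexpression libraries against 3657 and 3708 in the controls, a log2 fold change of -0.0022 (95% interval -0.14 to 0.14). Per kilobase of exon, the level of Kap-alpha3 was 1.87 and 1.80 times that of Kap-alpha1 in the overexpression libraries and 1.71 and 1.81 times in the controls. Their partner importin beta, encoded by Fs(2)Ket, had 4104 and 4273 normalized counts in the overexpression libraries, compared with 4485 and 4291 in the control libraries. The exportin gene emb, the fly CRM1, had 4570 and 4668 normalized counts in the overexpression libraries against 4705 and 4765 in the controls, without overlap but with a log2 fold change of only -0.04 (95% interval -0.17 to 0.10).

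The Ran cycle gives transport its direction. Ran had 3677 and 3535 normalized counts in the overexpression libraries, against 3507 and 3529 in the controls. Rcc1, the chromatin-bound exchange factor that loads Ran with GTP, had 1090 and 946 normalized counts in the overexpression libraries against 1071 and 1134 in the controls. Per kilobase of exon, the level of Ran was 4.20 and 4.66 times that of Rcc1 in the overexpression libraries and 4.08 and 3.88 times in the controls, while the log2 fold changes of the 2 genes, 0.04 and -0.11, both had intervals across 0.

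**Figure D4:**
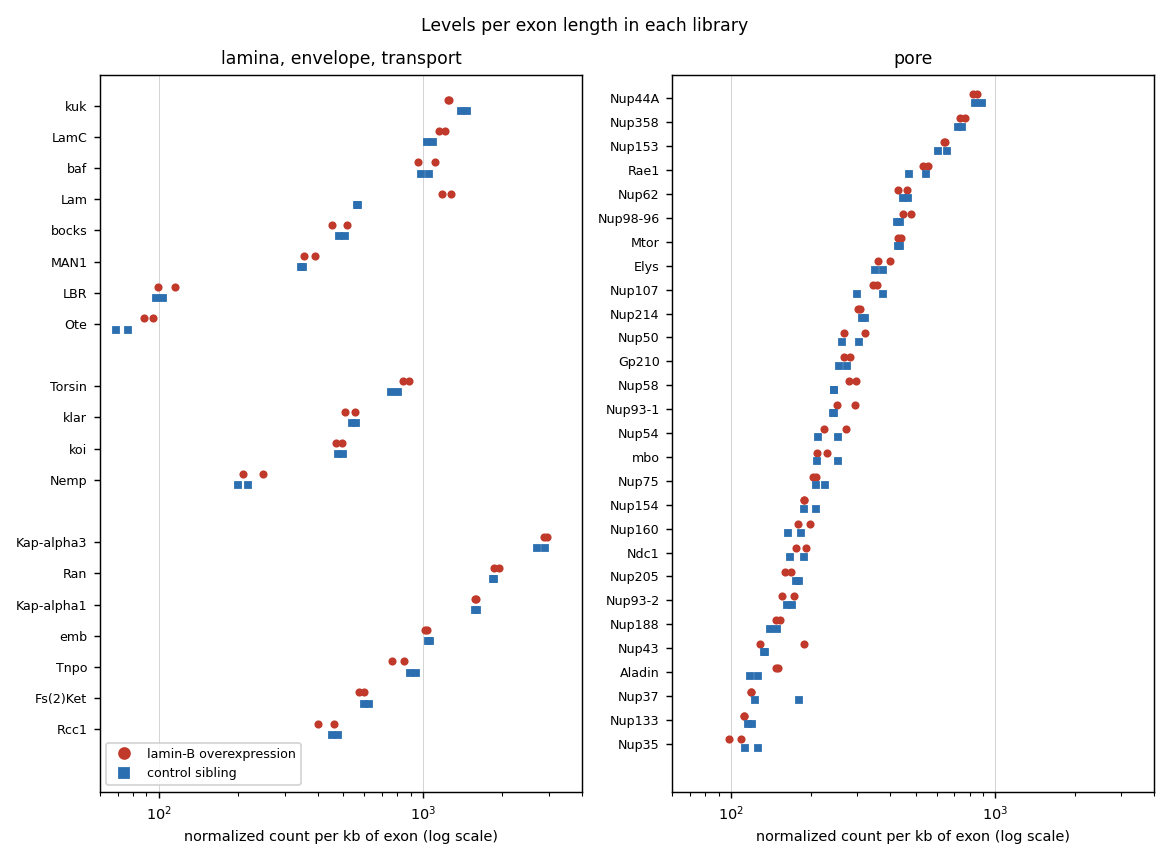
Normalized count per kilobase of exon (log axis) of the 47 genes with recovered reads in each library, overexpression as circles above control squares, ordered by level within each group. Lam stands near LamC and kuk in the overexpression libraries and near bocks in the controls, and no other gene is displaced by as much.

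As to abundance, 15 of the 48 genes had a mean under the median of all tested genes. Their median mean normalized count was 1051, against 615 for all tested genes in the authors' deposited table, and the lowest was 129. Per kilobase of exon, mean levels ran from 82.2 normalized counts for Ote to 2849 for Kap-alpha3. By group, the median level per kilobase over genes with recovered reads was 1041 for transport, 694 for lamina, 513 for envelope and 249.9 for pore genes. The 48 genes lie on chromosome arms 2R (15 genes), 3R (12), X (9), 2L (8) and 3L (4).

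The limits below, on genes that did not pass, are normal intervals from 2 libraries per group at the dispersion of the authors' fit. They allow neither for error in that dispersion nor for the choice of scaling. Of the 47 genes other than Lam, 41 had 95% intervals wholly within 1.5-fold of no change, and 17 had intervals within 1.25-fold. The 6 others were Ote, Nup37, Nup43, Nup35, Aladin and Nup58, all with mean normalized counts of at most 485. The median size of the log2 fold change among the 47 was 0.08, against 0.11 for the 8527 tested genes with a mean of at least 100. Their median was 0.03 with its sign, with 26 above 0 and 21 below, against 52.1% above 0 among all tested genes.

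Genes whose groups did not overlap were also counted. Of the 47 genes with recovered reads 10 lay above both controls in both overexpression libraries, or 21.3%, against 23.3% of all tested genes with recovered reads and a mean of at least 100. Another 10 lay below both controls, or 21.3%, against 29.9% of the same genes. Scaling by each library's total of recovered reads instead of size factors shifted all fold changes by 0.03 on the log2 scale, and the split became 17 above and 6 below. Over all tested genes with recovered reads and a mean of at least 100, the shares by that scaling were 29.0% above and 23.4% below. The direction of small differences therefore depended on the scaling, in this set and among all genes.

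**Figure D5:**
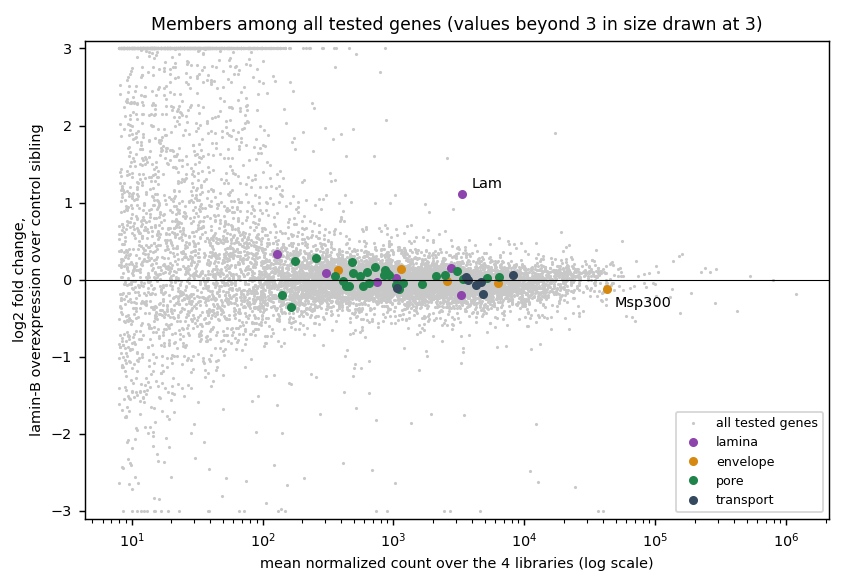
Log2 fold change, overexpression over control, of each tested gene against its mean normalized count over the 4 libraries (log axis), with the 48 genes in colour by group and values beyond 3 in either direction drawn at 3. Lam, at 1.11, lies above nearly all genes of like abundance and the other 47 lie within the body of all genes.

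Other genes of the same roles were also listed, 46 in number, of which 44 had a row with reads and 40 were tested. Of the 40, 1 was called in the authors' deposited table, and it was lower. Over all tested genes 3.07% were called lower and 5.66% higher, so this count is near the share of all genes. By role that was 1 of 7 tested envelope genes, with 0 of 6 for processing of the lamin tail, 0 of 9 for the pore and mRNA export and 0 of 18 for transport. That gene was Lpin (FBgn0263593), which encodes lipin, an enzyme of lipid synthesis whose yeast relative acts on the shape of the nuclear envelope. Its log2 fold change was -0.20 (95% interval -0.29 to -0.11) at a mean normalized count of 15155, with an adjusted p of 9.94e-04 in the authors' deposited table. By the test with shrinkage undone, Karybeta3, an importin gene, also passed, at a log2 fold change of 0.14 (adjusted p = 0.0493), where the authors' deposited table gave an adjusted p of 0.065. The genes for processing of the lamin tail included Fnta and Fntb, the farnesyltransferase subunits, with log2 fold changes of 0.10 and -0.12, and ste24a, a protease gene, at -0.02. The others were less abundant and had log2 fold changes of 0.51 for the protease gene ste24b, 0.45 for the protease gene Sras and 0.41 for the methyltransferase gene ste14, all with 95% intervals that included 0. Sras had 184 and 180 normalized counts in the overexpression libraries, against 118 and 149 in the controls. The groups of Sras and ste14 did not overlap, with overexpression higher. Those of Fntb did not overlap either, with overexpression lower, at 1027 and 919 against 1056 and 1056 in the controls.

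Testis paralogs of 3 of these genes were also listed. Ran-like, known from the male germline, had 18.3 and 119 normalized counts in the overexpression libraries, compared with 0 and 5.48 in the control libraries. The authors' deposited table gave it an adjusted p of 0.165, while limma on the recovered reads called it higher (adjusted p = 0.0374), as did the Wald test with shrinkage undone (adjusted p = 0.00867), which called 9.76% of all genes higher. Of the 4 limma fits that left out a library, it passed only without the control library with size factor 0.73 (adjusted p = 0.0241). The larger of its values stood in the library that also held most testis marker reads. Ntf-2r had 0.873 and 10.9 normalized counts in the overexpression libraries, against 5.51 and 0 in the controls, and Spag4, a SUN domain gene, had 1.75 and 3.62 in the overexpression libraries against 0.918 and 2.74 in the controls. Neither had an adjusted p in the authors' deposited table. Their relatives Ran, Ntf-2 and koi had log2 fold changes of 0.04, 0.04 and -0.02.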

How the data were processed

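RNA of pooled heads was measured in 4 samples, 2 per group. The submitters' processing notes name DESeq, DESeq2 1.22.1, HTSeq and STAR 2.5, and the build BDGP6. No label or header states the strand setting, the annotation release or the filters. The authors' deposited table holds for each gene a mean signal (the mean normalized count over the libraries of their fit), a log2 fold change with its standard error, a Wald score, and a p-value with its adjusted p-value. Its fold changes are shrunken towards 0, and their direction, overexpression over control, follows the order in which the table names the groups. A second deposited table names no comparison and was not used here.

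The design assumed counts per library, which the table used here does not hold, so the test is the authors' Wald test. Whole reads per library were recovered for genes with a mean of at most 10000 by searching for the whole numbers that give the printed mean, fold change and standard error when the shrunken fit is repeated. Of 14667 genes 14507 had a single solution, and of 100 altered fold changes tried per gene 0.0177% had one. Each of the 47 recovered members had none among its altered fold changes. Which group a library belongs to came from the sign of the deposited fold change of genes with a single read. Recovered reads summed to 16.9 and 16.5 M reads in the overexpression libraries, against 16.6 and 11.0 M reads in the controls, without the genes above that mean. Shrinkage was undone by the same fit without the prior, and 95% intervals are normal intervals from its standard error. Both rest on the dispersion of the authors' fit.

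Levels per kilobase use the merged exons of Ensembl release 115, of the same assembly, where Mtor was matched by a RefSeq synonym. As an alternative, limma 3.58.1 (R 4.3.3) with a mean trend was run on log2(normalized count + 1) over 10990 genes. Both procedures were also run on simulated data. Recovery returned the known reads for 100% of 200 genes with means of 100 to 1000 and of 200 with means of 1000 to 10000. These genes took their means and dispersions from genes already recovered, with no difference between the groups. The result therefore does not cover genes on which recovery failed. Limma called 92% of 100 genes changed 2-fold, 65% of 100 changed 1.5-fold and 0.12% of unchanged genes. Adjustment was Benjamini-Hochberg over all genes tested. The members, the lists of related genes and markers and the alternatives were chosen with earlier results of these data known. Named are Lam and LamC, every gene called, in each group the 4 largest fold changes and the most and least abundant gene, every member with recovered reads or no adjusted p, and the testis paralogs. Exons of 8 members overlap another gene on the opposite strand by more than 5%, and without the strand setting their reads cannot be told apart. Columns of other series numbered 0.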

Additional observations from a re-analysis of the deposited data

How the results depend on the processing

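Lam was called in each of the 8 other settings tried, with log2 fold changes between 1.03 and 1.17. Its lowest value over the fits that left out 1 library each was 1.06 and its highest 1.17. The count of members called was 1 in every setting, leaving out a library included, except in limma on all recovered reads, where it was 2, with kuk, and so was the count of lamina genes. Over all genes the share called was 13.6% in limma on all reads, 13.3% with shrinkage undone, and from 2.76% to 11.4% when 1 library was left out. The envelope, pore and transport counts were 0 in every setting. Related genes called numbered 1, became 2 at an adjusted p under 0.1, and 3 with shrinkage undone. By limma the call was Ran-like alone on all reads and 0 to 2 genes when 1 library was left out, but these fits could not call Lpin, whose reads were not recovered. Of the 48 members, 1 reversed when fold changes were centred on the median of all tested genes: Mtor, then at -0.0030. Genes above or below both controls numbered 20 with size factors and 23 with totals of recovered reads, which leave out genes with a mean above 10000. The comparison with edgeR on counts was not run, since the authors' counts per library were not used here, and the block by replicate was not run either. No paired analysis was possible because the recovered libraries carry no replicate number. Intervals reached beyond 1.5-fold for 6 genes, all with mean normalized counts of at most 485, while other genes with means down to 304 had intervals within it.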
